A study of Rattus norvegicus with 60 samples.

Results

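The neuron-enriched microRNAs (miRs) miR-124, miR-9, miR-128, miR-137, miR-138 and miR-218 were followed in the rat retina after ischemia-reperfusion (IR) injury. They were chosen by name: every rat miR on the array that is named for 1 of these 6 hairpins and whose name carries no asterisk, the older mark for the passenger strand of a hairpin. The rule found 6 of the 350 rat miRs on the array. Of these 6, 5 gave enough signal to be tested, and miR-137 did not.

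The samples were whole retinas of 60 male Long Evan’s hooded rats weighing 250 to 300 g. Each rat gave 1 array, and the 10 groups held 6 rats apiece. In the IR groups the pressure inside a single eye was raised to 110 mmHg for 60 min by a saline reservoir, and the eye was sampled without reperfusion (0 h) or after 2 h, 24 h, 48 h or 7d of it. The sham control rats had the same anesthesia, drops and cannulation without the raised pressure, and were sampled at the same 5 times. All groups therefore share the surgery, and a retina holds every retinal cell type, so that fewer neurons and less of a miR per neuron cannot be told apart in these samples.

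A miR is a short RNA that guides a silencing complex to messenger RNAs carrying a match to its seed, the bases next to its 5′ end. The miRs described here are known from the nervous system: miR-124 represses non-neuronal transcripts in neurons, miR-9 acts in neural progenitors and neurons, miR-128 limits neuronal excitability, miR-137 and miR-138 act in synapses and dendritic spines, and miR-218 is prominent in motor neurons. In the retina, miR-124 is abundant in neurons and miR-9 is also found in Müller glia, whereas the cluster of miR-183, miR-96 and miR-182 belongs to photoreceptors and other sensory cells.

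The mature sequences are shown because they define what each member can bind and show that the members are separate seed families and not variants of 1 RNA. Sequences are from RefSeq (rat assembly GRCr8), written 5′ to 3′, and the capitals mark the seed, bases 2 to 8. RefSeq entries were matched for 5 of the 6 members, and miR-124 was the other.
rno-miR-9: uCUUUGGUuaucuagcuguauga
rno-miR-128: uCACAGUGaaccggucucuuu
rno-miR-137: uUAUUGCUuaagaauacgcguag
rno-miR-138: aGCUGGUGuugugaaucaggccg
rno-miR-218: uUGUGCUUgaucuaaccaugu
The passenger strand of the miR-9 hairpin, which the array lists as rno-miR-9*, is given for comparison because it was measured beside miR-9.
rno-miR-9*: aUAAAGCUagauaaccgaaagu

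No seed among these 6 sequences is also the seed, taken at the same bases, of another of the 693 rat mature entries in RefSeq. On GRCr8, miR-9 is encoded by 3 hairpins, at chr1:142849400-142849489, chr2:15933292-15933378 and chr2:175974971-175975059. miR-128 has 2 hairpins, chr8:120963795-120963878 within the span of the gene Arpp21 and chr13:42251884-42251965 within R3hdm1. miR-138 also has 2, chr8:131178434-131178532 in no other gene's span and chr19:10680133-10680214 within Slc12a3. The 2 hairpins of miR-218 lie within the axon guidance genes Slit3 (chr10:20572523-20572632) and Slit2 (chr14:66922348-66922457), and the hairpin of miR-137 lies in no other gene's span, at chr2:209165709-209165810. The array reads the mature RNA and cannot say which hairpin it came from.

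For each miR the array gives a total fluorescence signal and a flag for detection above background. Signals were scaled by the 75th percentile of the 57 miRs that every one of the 60 arrays detected, raised to a floor of 6.20 signal units (2.63 on the log2 scale) and taken to log2, and all levels below are on this scale. A level of 1 miR is not comparable with a level of another, because probes differ in response. A miR was called where limma gave an adjusted p of 0.05 or below and a fold change of 2 or above in either direction. This was done over 159 miRs, those that some group detected on its 6 arrays without exception. miR-124 and miR-9 met this in all 10 groups, and miR-128 and miR-218 in all 5 sham control groups and some IR groups. miR-138 met it only in sham control at 7d, so that it was tested only because of a group in which it was high, and counts that include it lend no support to the members as a set.

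The IR arrays were dimmer. Before scaling, array brightness (the log2 75th percentile, relative to its mean over all arrays) ranged from -2.27 to -0.84 in IR and from 0.25 to 1.04 in sham control at 24 h, and from -2.40 to -1.13 against 0.79 to 1.48 at 7d, without overlap. The lowest signal of any detected miR, after scaling, had a median of 4.77 in IR and 2.38 in sham control at 24 h, and of 5.15 and 1.82 at 7d, so a weak miR was harder to detect on IR arrays. Between 59 and 232 miRs were detected per array. Scan day was balanced, with all 30 same-numbered IR and sham control arrays scanned on the same day, whereas none of the 9 slides held both groups of 1 time point, so that slide and group cannot be told apart within a time point. Sham control replicate 1 at 48 h stood apart. It had the highest miR-124 (14.30) and miR-138 (5.28) and the lowest miR-9 (5.99) of all 60 arrays. The differences of the members tested, of miR-9* and of miR-124* at 48 h are therefore also given without it.

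The question asked of the members was whether IR changed their level at each reperfusion time. The signal of miR-138 was lower in IR at 24 h, 48 h and 7d with no overlap between the groups. The same held for 17%, 8.81% and 26.4% of all miRs tested. But at 24 h and 7d no IR array detected miR-138, and at 48 h 1 of 6 did. miR-128 was 1.71-fold lower at 7d, again without overlap (as were 26.4% of all miRs tested), and 1.36-fold lower at 24 h. miR-9 was 1.29-fold lower at 24 h, and the level of miR-124 differed by less than the spread between arrays at all 5 times.

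In limma, 0 of the 5 members tested were called at 0 h, where 6.92% of all 159 miRs were called, 0 at 2 h (5.03% of all), 1 at 24 h (18.2% of all), 0 at 48 h (13.8% of all) and 1 at 7d (18.2% of all). The called member was miR-138 both times, with 0 of 6 IR arrays detecting it at either. At an unadjusted p under 0.05, 1 member passed at 0 h (miR-138, which also passed the adjusted p, as did 1.89% of all miRs in this direction), 0 at 2 h and 2 at 48 h, and the exact permutation test per miR with the same fold threshold called 0 at each of these times. Without the fold threshold, 4 of the 5 members were lower in IR at 24 h (miR-9, miR-128, miR-138 and miR-218), where 35.8% of all miRs tested were lower. By the adjusted p of the exact permutation test, 2 of the 5 were lower at 24 h (miR-9 and miR-138), beside 58 of all 159 miRs. The share of all miRs rests on the scaling: by the adjusted p at 24 h, 57 miRs were lower and 39 higher, against 90 lower and 22 higher when arrays were scaled over all miRs. By the adjusted p alone, 2 members were lower at 48 h (35.2% of all) and 2 at 7d (39.6% of all), miR-128 and miR-138 at both. The median difference of the 5 members was -0.41 at 24 h, -0.11 at 48 h and -0.23 at 7d, where that of all 159 miRs was -0.13, -0.15 and -0.15.

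**Figure D1:**
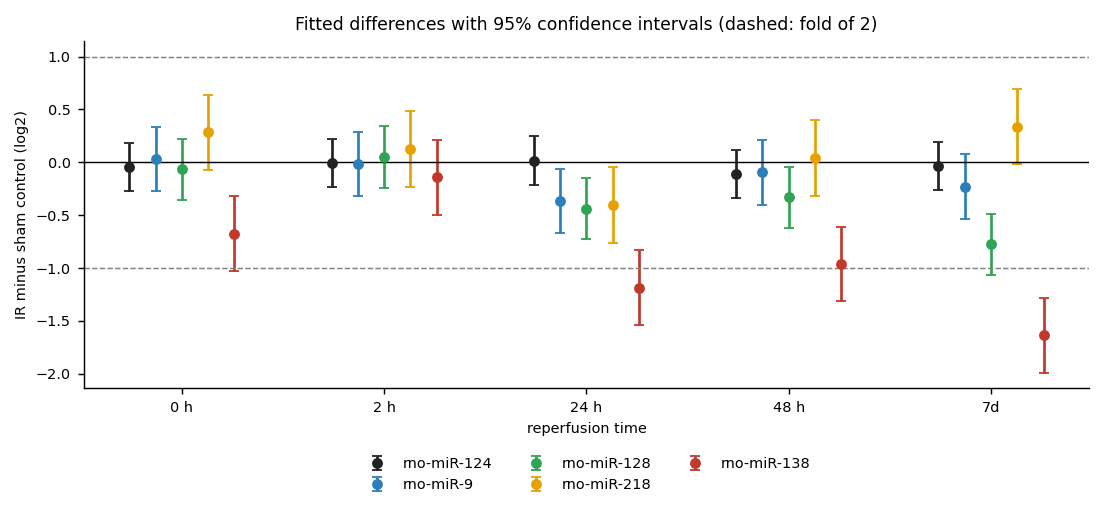
Fitted log2 difference, IR minus sham control, of the 5 members tested (points, with 95% confidence intervals from limma) at the 5 reperfusion times, 6 arrays per group. Dashed lines mark a fold change of 2; only the points of miR-138 at 24 h (-1.18) and 7d (-1.64) lie beyond them, and the intervals of miR-124 include 0 at every time.

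miR-138, which restrains dendritic spine growth in brain neurons, was at a narrow level in the sham control retinas. The lowest, median and highest log2 levels of the 6 sham control arrays were 4.22, 4.33 and 4.50 at 0 h, 4.20, 4.40 and 4.66 at 2 h, and 4.07, 4.31 and 4.51 at 24 h. They were 4.12, 4.51 and 5.28 at 48 h and 4.20, 4.36 and 4.65 at 7d. The sham control groups covered similar ranges at all times except 48 h, where the outlying array widened the range.

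On the IR arrays, the lowest, median and highest miR-138 were 3.27, 3.57 and 4.26 at 0 h, then 4.15, 4.29 and 4.39 at 2 h. They were 2.63, 3.28 and 3.51 at 24 h, where 2.63 is the floor, 2.63, 3.84 and 4.0 at 48 h, and 2.63, 2.63 and 3.25 at 7d. Each IR array lay below each sham control array at 24 h, 48 h and 7d (IR below without overlap for 17%, 8.81% and 26.4% of all miRs tested), 5 of 6 IR arrays did so at 0 h, and 1 of 6 did at 2 h. miR-138 was detected on 0 of 6 IR arrays at 24 h and at 7d, against 4 and 6 of 6 sham control arrays. Over all times it was detected on 6 of 30 IR arrays and 25 of 30 sham control arrays.

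The fitted difference of miR-138 was -0.67 ± 0.18 (SE) at 0 h (adjusted p = 0.00485), -0.14 ± 0.18 at 2 h (adjusted p = 0.850), and -0.96 ± 0.18 at 48 h (adjusted p = 1.13e-05). The difference at 0 h did not pass in limma with a floor of 1 signal unit (adjusted p = 0.448). Nor did it pass with brightness as a covariate (-0.38, adjusted p = 0.231) or by the exact permutation test (adjusted p = 0.0794). At 0 h, 1 of 6 IR arrays and 5 of 6 sham control arrays detected miR-138. At 24 h the means were 3.12 ± 0.39 for IR and 4.30 ± 0.20 for sham control (SD, n = 6), with an adjusted p of 2.81e-07 by limma. At 7d they were 2.76 ± 0.25 and 4.40 ± 0.18 (SD, n = 6), with an adjusted p of 1.75e-10 by limma. Since no IR array detected miR-138 at these 2 times, the IR level is only an upper bound, and the bound gives no measured fold change: the lowest detected signal exceeded the sham control mean of miR-138 on 4 of 6 IR arrays at 24 h and on 4 of 6 at 7d. In IR, 2 of 6 values at 24 h and 4 of 6 at 7d were the floor itself, so the sizes -1.18 and -1.64 depend on the floor chosen. With a floor of 1 signal unit they were -1.68 and -2.83. When all 225 miRs detected on at least 1 array were tested, so that miR-138 no longer entered through sham control at 7d, the adjusted p was 3.10e-07 and 3.03e-10. Without the outlying sham control array, the difference at 48 h was -0.82.

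Within the 3 scan days, the differences of miR-138 were -0.72, -1.26 and -1.88 at 24 h and -1.59, -1.65 and -1.66 at 7d, with 1 to 3 arrays per group and day. They kept their direction at all 5 times on all days. The 2 probes of miR-138, which lie at chr19:11114711-11114724 and chr19:11114711-11114725 on rn4, were both lower in IR at 7d. The difference was -0.26 for the shorter, at the floor on 6 of 12 arrays, and -1.0 for the longer, at the floor on 4 of 12. At 24 h they gave -0.25 and -0.67, neither past a fold of 2, with 8 and 1 of 12 arrays at the floor.

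**Figure D2:**
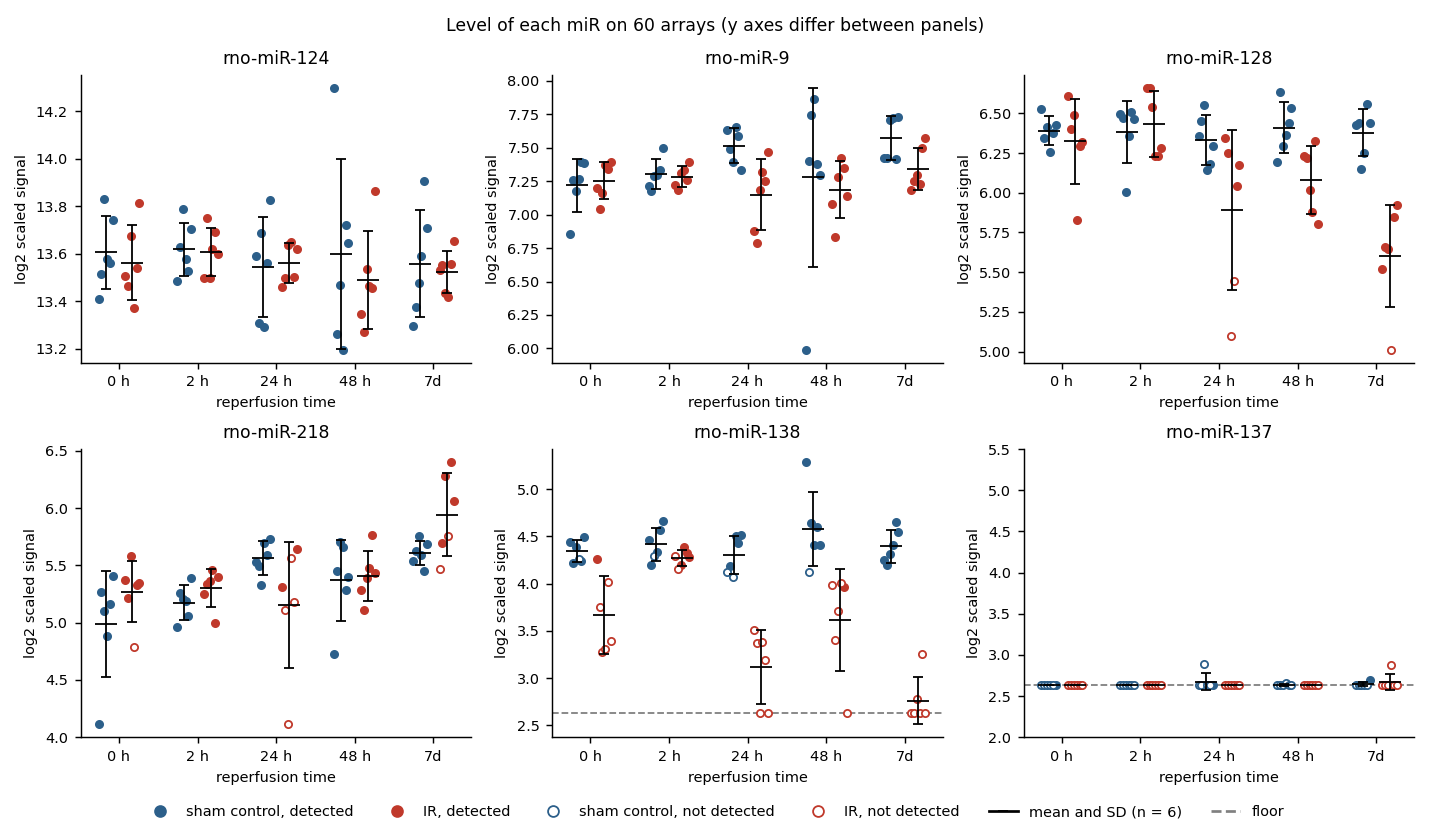
Level of each member (log2 scaled signal, y axes differ between panels) on all 60 arrays by reperfusion time, with filled points for arrays on which the miR was detected and open points for the others; bars give mean and SD of 6 arrays, and the dashed line is the floor of 2.63. miR-138 in IR lies below sham control at 24 h, 48 h and 7d, mostly as open points, while the groups of miR-124 overlap at every time.

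The level of miR-138 moved with the brightness of the array. Over the 60 arrays its Pearson correlation with brightness was 0.85, and it was 0.50 after each group's mean had been removed, which is a description of arrays that also differ in treatment. The part of brightness in the result was not tested beyond the values given here. With brightness as a covariate the differences were -0.59 at 24 h and -0.92 at 7d (adjusted p = 0.0450 and 0.00524), no longer past a fold of 2. Under normexp background correction the direction turned, to 1.06 at 24 h and 1.42 at 7d, in a setting in which the median of all miRs tested was itself 0.87 and 1.13. With each array centred on miR-124 the differences were -1.20 and -1.60, and centred on the photoreceptor cluster they were -1.34 and -1.65.

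miR-128, which damps neuronal excitability in brain, differed most at 7d. The lowest, median and highest levels at 7d were 5.01, 5.65 and 5.92 in IR and 6.15, 6.43 and 6.56 in sham control. At 48 h they were 5.80, 6.12 and 6.33 against 6.19, 6.4 and 6.63, and at 24 h 5.10, 6.11 and 6.35 against 6.14, 6.33 and 6.55. The groups overlapped at 24 h and 48 h and did not at 7d, where IR lay below without overlap for 26.4% of all miRs tested.

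The difference of miR-128 was -0.78 ± 0.14 (SE) at 7d (adjusted p = 1.17e-05), -0.33 ± 0.14 at 48 h (adjusted p = 0.0491) and -0.44 ± 0.14 at 24 h (adjusted p = 0.00924). At 0 h it was -0.07 and at 2 h 0.05, both within the spread. miR-128 was detected on all 30 sham control arrays and on 27 of 30 IR arrays, the exceptions being 2 at 24 h and 1 at 7d. Without replicate 3 of the IR group at 24 h, the difference there was -0.28 (adjusted p = 0.0730), and at 48 h the adjusted p was over 0.05 in 40 of the 60 fits that left out 1 array. The adjusted p at 24 h was also over 0.05 by the exact permutation test (0.0721) and in limma with only the arrays compared (0.0745). At 7d no left-out array changed the call by adjusted p. Leaving out the outlying sham control array gave a difference of -0.37 at 48 h (limma, adjusted p = 0.0318).

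Within scan days the differences of miR-128 at 7d were -0.84, -0.87 and -0.62, with 2 arrays per group and day. At 24 h they were -0.11, -0.76 and -0.12. Its 2 probes, at chr13:40907626-40907644 and chr13:40907625-40907644 on rn4, gave -1.35 and -0.60 at 7d, the first with 3 of 12 arrays at the floor. The correlation of miR-128 with array brightness was 0.74 over 60 arrays and 0.51 within groups, and with brightness as a covariate the difference at 7d was -0.18 (adjusted p = 0.568). Under normexp background correction it turned to 0.80 at 7d and 0.67 at 24 h, where the median of all miRs tested was 1.13 and 0.87. With the highest detection limit of any array (6.50) as the floor, which lies above the sham control means of miR-128, the differences were -0.01 at both times.

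**Figure D3:**
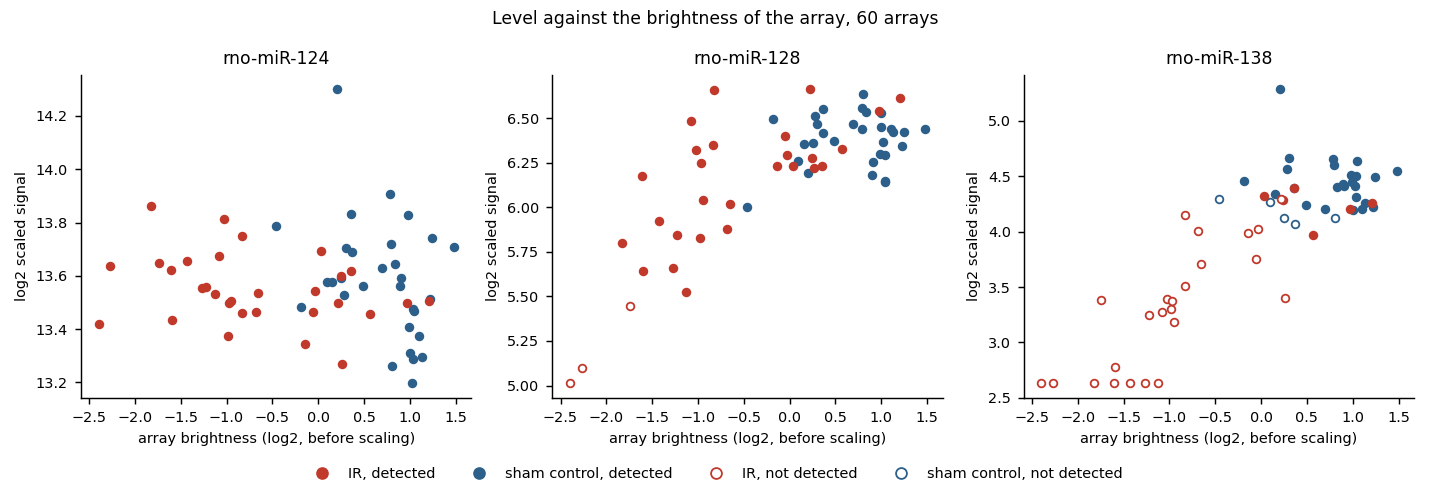
Level of miR-124, miR-128 and miR-138 (log2 scaled signal) against the brightness of the array before scaling (log2), 60 arrays, filled where the miR was detected. The dim end of the axis holds mainly IR arrays; miR-128 and miR-138 are low there (r = 0.74 and 0.85), and miR-124 shows no such slope (r = -0.12).

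miR-9, which acts in neural progenitors and neurons, was detected on all 60 arrays. At 24 h its lowest, median and highest levels were 6.79, 7.22 and 7.47 in IR and 7.33, 7.54 and 7.66 in sham control, and 5 of 6 IR arrays lay below the lowest sham control array. The difference was -0.37 ± 0.15 (SE), with an adjusted p of 0.0376 by limma. At 7d the levels were 7.18, 7.27 and 7.57 against 7.42, 7.57 and 7.73, and the difference of -0.23 ± 0.15 did not pass (adjusted p = 0.183), though it did without the outlying sham control array at 48 h (adjusted p = 0.0449).

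The result for miR-9 at 24 h was not firm. The adjusted p exceeded 0.05 on leaving out any of 6 of the 12 arrays compared, with the smallest difference, -0.29, without replicate 2 of IR. With slide as a block it was -0.27 (adjusted p = 0.394), with slide as a random block the adjusted p was 0.0510, and normexp background correction turned it to 0.22. The differences within the 3 scan days were -0.73, -0.29 and 0.13, the last from 1 array per group. At 48 h the difference of -0.10 (adjusted p = 0.588) became -0.35 (adjusted p = 0.00522) without the outlying sham control array. At 0 h (0.03) and 2 h (-0.02) the groups were within the spread.

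The passenger strand miR-9*, which comes from the same hairpins and was also detected on all 60 arrays, had differences of 0.02 at 0 h, -0.03 at 2 h, -0.26 at 24 h, -0.13 at 48 h and -0.21 at 7d. At 24 h its adjusted p was 0.0432, with levels of 9.03 to 9.35 in IR and 9.29 to 9.67 in sham control. The adjusted p exceeded 0.05 on leaving out any of 7 arrays. At 48 h the difference became -0.26 (limma, adjusted p = 0.0257) without the outlying sham control array. The levels of miR-9 and miR-9* had a Pearson correlation of 0.74 over the 60 arrays, which share the same RNA and scaling.

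**Figure D4:**
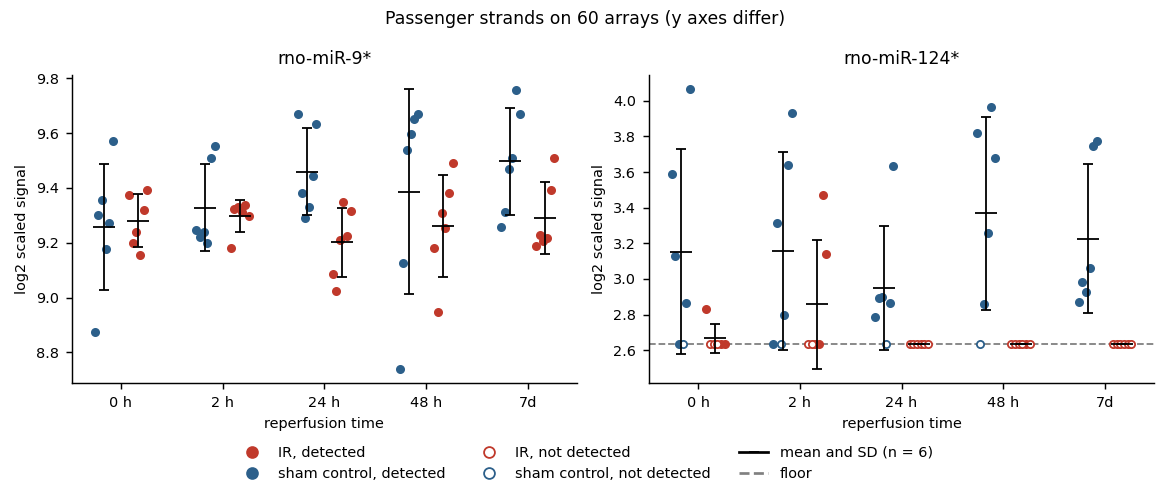
Levels of the passenger strands miR-9* and miR-124* (log2 scaled signal, y axes differ) on all 60 arrays, with mean and SD of 6 arrays and the floor of 2.63 dashed. miR-9* is measured on every array and is lower in IR at 24 h; miR-124* lies at the floor on all IR arrays at 24 h, 48 h and 7d.

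miR-124, the classic neuron-specific miR, had group means within 0.13 of each other. The median was 13.57 (lowest 13.41, highest 13.83) in sham control and 13.52 (13.37 to 13.81) in IR at 0 h, 13.60 (13.48 to 13.79) and 13.61 (13.50 to 13.75) at 2 h, and 13.58 (13.29 to 13.83) and 13.56 (13.46 to 13.65) at 24 h. At 48 h it was 13.56 (13.20 to 14.30) and 13.46 (13.27 to 13.86), and at 7d 13.53 (13.30 to 13.91) and 13.54 (13.42 to 13.65). The groups overlapped at every time.

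For miR-124 the differences were -0.04 (0 h), -0.01 (2 h), 0.02 (24 h), -0.11 (48 h) and -0.03 (7d), each ± 0.11 (SE), with adjusted p from 0.449 to 0.999. The 95% confidence intervals ran from -0.27 to 0.18 at 0 h, from -0.24 to 0.22 at 2 h, from -0.21 to 0.25 at 24 h, from -0.34 to 0.12 at 48 h and from -0.26 to 0.19 at 7d. A change of more than 0.34 on the log2 scale in either direction thus lay outside all 5 intervals, given this scaling. Leaving out the outlying sham control array gave a difference of 0.03 at 48 h (limma, adjusted p = 0.800). The level relative to the other miRs is what was measured. Before scaling, the signal of miR-124 was lower on all 6 IR arrays than on any sham control array at 24 h, 48 h and 7d, by means of -2.13, -1.30 and -2.62. With arrays scaled over all miRs the differences were -0.36 at 0 h, -0.30 at 24 h, -0.26 at 48 h and -0.23 at 7d. All passed in limma (adjusted p = 0.00111, 0.00344, 0.0121 and 0.0215), in a setting that moved the median of all miRs tested to -0.29, -0.42, -0.29 and -0.35. The authors' table of log2 values gave -0.35, -0.34, -0.24 and -0.28, which also passed, beside medians of -0.25, -0.34, -0.24 and -0.37. miR-124 was also lower by the adjusted p at these times under normexp background correction and without normalization.

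The passenger strand miR-124* was close to the floor. It was detected on 5 or 6 of 6 sham control arrays at each time and on 3 of 6 IR arrays at 0 h, 4 at 2 h, 1 at 48 h and none at 24 h and 7d. All IR arrays were at the floor from 24 h on, and the sham control levels reached from the floor to 3.96 at 48 h and from 2.87 to 3.77 at 7d. The fitted differences were -0.74 ± 0.21 (SE) at 48 h (adjusted p = 0.00296) and -0.59 ± 0.21 at 7d (adjusted p = 0.0131), the latter with an adjusted p of 0.0525 without sham control replicate 6. All 6 IR values were the floor at both times, and miR-124* was tested only because sham control at 7d detected it on all 6 arrays, so these sizes depend on the floor. No fold is given at 24 h and 7d because no IR array detected it. With slide as a block the differences were -0.34 and -0.25 (adjusted p = 0.255 and 0.380), and under normexp background correction the value at 7d turned to 1.63. Leaving out the outlying sham control array gave a difference of -0.65 at 48 h (limma, adjusted p = 0.0106).

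miR-218 lay below sham control at 24 h and above it at 7d, where the difference did not pass the test. At 24 h the lowest, median and highest levels were 4.12, 5.24 and 5.65 in IR and 5.33, 5.56 and 5.73 in sham control, a difference of -0.41 ± 0.18 (SE; adjusted p = 0.0454). At 7d they were 5.47, 5.91 and 6.4 in IR and 5.45, 5.61 and 5.75 in sham control, a difference of 0.34 ± 0.18 (adjusted p = 0.0980). The groups overlapped at both times.

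The lower level of miR-218 at 24 h rested mainly on replicate 3 of IR, at 4.12 where the next array was at 5.11. Without it the difference was -0.20 (adjusted p = 0.301). The adjusted p was also above 0.05 with slide as a block (-0.32, adjusted p = 0.436), slide as a random block (0.0934), only the arrays compared (0.115) and the exact permutation test (0.0876). The change of the IR effect from 24 h to 7d was 0.74 ± 0.25 (SE), which did not pass after adjustment (adjusted p = 0.108, unadjusted p = 0.00474). It passed without replicate 1 of IR at 7d (0.84, adjusted p = 0.0453) or replicate 6 of IR at 24 h (0.84, adjusted p = 0.0430), and without the former the difference at 7d itself was 0.43 (adjusted p = 0.0398). At 0 h the difference was 0.28, at 2 h 0.12 and at 48 h 0.04, all with adjusted p above 0.05. Leaving out the outlying sham control array gave -0.09 at 48 h (limma, adjusted p = 0.675). miR-218 was detected on all 30 sham control arrays and on 23 of 30 IR arrays, only 2 of 6 at 24 h. Its passenger strand miR-218* was detected on none of the 60 arrays.

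miR-137 could not be compared. It was detected on 3 of 60 arrays, all sham control and all scanned on the same day, and its scaled signal was at the floor on 56 of 60 arrays, with a highest level of 2.89. A difference was not detectable at these signals. The passenger strand miR-138* was also weak, with 6 sham control detections and none in IR.

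Whether the IR effect differed between times was tested with the same fit. From 2 h to 24 h it differed for 1 of 5 members, miR-138 (-1.04 ± 0.25, SE; adjusted p = 0.00173), where 23.9% of all miRs did. No IR array detected miR-138 at 24 h and 2 were at the floor, and the difference did not pass with a floor of 1 signal unit, with brightness as a covariate or under normexp background correction. From 24 h to 7d the effect differed for 0 of 5 in limma (3.14% of all), with 1 member, miR-218, at an unadjusted p under 0.05. The change for miR-128 from 2 h to 24 h, -0.49 ± 0.20, did not pass (adjusted p = 0.0719), and it passed on leaving out IR replicate 1 (-0.58, adjusted p = 0.0307) or 2 (-0.56, adjusted p = 0.0410) at 24 h or IR replicate 4 at 7d (adjusted p = 0.0482).

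Among the 5 sham control groups, limma found no member to differ over time (0 of 5, against 5.66% of all miRs), with 1 at an unadjusted p under 0.05. That was miR-218, with means from 4.99 ± 0.46 at 0 h to 5.61 ± 0.11 at 7d (SD, n = 6) and an adjusted p of 0.0553 in limma's moderated F test. Its direct comparison of 7d with 0 h passed (0.62 ± 0.18, SE; adjusted p = 0.0279, with 10.1% of all miRs passing), but not without sham control replicate 1 at 0 h (0.44, adjusted p = 0.154). Without the outlying sham control array at 48 h, the F test passed for miR-9 and miR-218 (adjusted p = 0.0300 and 0.0222). The sham control means of miR-124 lay between 13.54 and 13.62, those of miR-128 between 6.33 and 6.41, those of miR-138 between 4.30 and 4.58 and those of miR-9 between 7.22 and 7.57.

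Ordered over all 10 groups, the mean level of miR-138 was lowest in IR at 7d, then 24 h, 48 h, 0 h and 2 h, and the 5 sham control groups followed, ending with 48 h. Of the 9 pairs of neighbours in that order, 8 differed by less than the larger SD of the pair. The exception was the step from IR at 0 h (3.67) to IR at 2 h (4.27), a gap of 0.61. miR-128 ran from IR at 7d (5.60), 24 h (5.89), 48 h (6.08) and 0 h (6.32) through the 5 sham control groups to IR at 2 h (6.43), and all 9 neighbouring pairs lay within their larger SD.

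miR-9 was lowest in IR at 24 h (7.15) and highest in sham control at 7d (7.57), and only the step of 0.18 from IR at 7d to sham control at 24 h exceeded the larger SD. The order of miR-124, from IR at 48 h (13.49) to sham control at 2 h (13.62), had no step beyond the SD. miR-218 ran from sham control at 0 h (4.99) to IR at 7d (5.94), with no step beyond the larger SD.

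Over the 60 arrays, the miRs whose levels were most like each member, among the 57 detected on all arrays, were as follows by Pearson correlation. For miR-138 they were miR-103 (0.78), miR-129* (0.73) and miR-361 (0.70), and for miR-128 they were miR-103 (0.68), miR-434 (0.63) and miR-129* (0.60). These likenesses shrank within groups, to 0.23 for miR-138 and 0.27 for miR-128 with miR-103. For miR-9 they were miR-26b (0.87), let-7f (0.85) and let-7a (0.80), and within groups miR-26b stayed at 0.87. For miR-124 they were miR-30d (0.76), miR-30a (0.58) and miR-22 (0.58). miR-218 was most like miR-9 (0.53), miR-30b-5p (0.49) and miR-26b (0.48). For miR-137, nearly always at the floor, no correlation exceeded 0.22 (miR-338, then let-7e and miR-99a at 0.13 and 0.10). The arrays share treatment, scaling and brightness, so these values describe likeness only.

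A list of other miRs taken as neuron-enriched gave a setting for the members. The cells that the listed miRs come from were not checked, and the list included miR-125b-5p, miR-219-5p, miR-338 and miR-338*. Of 26 listed, 24 were on the array and 18 were tested. None was called at 0 h, 2 h or 48 h, where 6.92%, 5.03% and 13.8% of all miRs tested were called. At 24 h 1 was called higher (miR-338*), beside 19 of all 159 miRs. At 7d 2 were called lower (miR-153 and miR-323), beside 17 of all 159. By adjusted p alone, 6 were lower and 4 higher at 24 h (35.8% and 24.5% of all miRs), 10 lower and 1 higher at 48 h (35.2% and 19.5%), and 8 lower and 0 higher at 7d (39.6% and 20.1%). Under normexp background correction the direction of the list turned. The counts were 0 lower and 14 higher at 24 h and 0 lower and 16 higher at 7d. Most of all miRs tested were also higher in that setting, with a median difference of 0.87 at 24 h and 1.13 at 7d. With the scaling used throughout, the median difference of the listed miRs was -0.08 at 24 h, -0.33 at 48 h and -0.14 at 7d. That of all miRs was -0.13, -0.15 and -0.15.

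miR-153, which is encoded in genes for secretory vesicle proteins, was at the floor on all IR arrays at 7d and at 3.86 ± 0.41 in sham control (SD, n = 6), and miR-323 was at the floor against 3.68 ± 0.31. Neither was detected on an IR array at 7d, and both were detected on all 6 sham control arrays, so no fold is given. Sham control at 7d was also the sole group in which all 6 arrays detected them, the group through which they came to be tested, and under normexp background correction both turned (1.54 and 1.53). miR-338*, the passenger strand of a hairpin in the gene Aatk, rose at 24 h from 4.37 ± 0.38 to 5.83 ± 0.07 (SD, n = 6; adjusted p = 0.000102), and its difference was below 0 only without normalization (-0.69).

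Markers of other cells moved with IR as well, and their part in the results of the members was not tested. The photoreceptor cluster had 3 of 3 miRs tested and none called; its summed log2 level was 13.88 to 14.05 in IR and 13.65 to 13.92 in sham control at 24 h and 13.75 to 13.83 against 13.58 to 13.77 at 7d. Within it, miR-183 was higher by 0.40 at 24 h (adjusted p = 0.000245) and 0.31 at 7d, a direction that turned under normexp background correction (-0.19 and -0.29) and without normalization (-1.76 and -2.27). The differences of miR-96 were -0.01 and -0.14 at these times and those of miR-182 were 0.08 and -0.13, none past the test, and miR-182 was lower at 48 h by -0.38 (adjusted p = 0.00132). Of the 3 pigment epithelium miRs (miR-204, miR-211, miR-184), miR-184 was called lower at 7d, with no IR array detecting it and with sham control at 7d the sole group in which all 6 arrays did, although normexp background correction gave 0.45. Of the 4 muscle miRs only 1 was tested, miR-206. It was called higher at all 5 times, by 2.04 at 0 h and 1.34 at 7d, and was lower at 7d only without normalization (-1.25). miR-133a was detected on no array, and miR-133b on no IR array and on 1 or 2 of 6 sham control arrays at each time. miR-1 was detected on 4 of 6 IR and 0 of 6 sham control arrays at 2 h, and on 0 and 1 at 7d. For vessels, 2 of 3 miRs were tested and none was called, though miR-126 was lower at 24 h by -0.52 (adjusted p = 0.00496), with 1 of 6 IR arrays and 6 of 6 sham control arrays detecting it, and was at 0.98 under normexp background correction.

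Of 5 leukocyte miRs listed, 4 were on the array and none could be tested. Of these, miR-142-3p and miR-142-5p were detected on no array, miR-146a on 1 and miR-223 equally often in IR and sham control. The summed signal of the leukocyte list was nonetheless higher in IR at 24 h (5.42 to 6.97 against 4.63 to 5.11), without overlap. It was also higher without overlap at 48 h (5.25 to 6.96 against 4.64 to 5.09) and 7d (5.55 to 6.69 against 4.63 to 5.12). Most of the sum was miR-223, whose mean was 5.39 in IR and 2.97 in sham control at 24 h although 1 array of each group detected it. The sums thus hold mostly signals below detection, on IR arrays with a higher limit. The lowest detected signal had a median of 4.77 in IR and 2.38 in sham control at 24 h, and of 5.15 and 1.82 at 7d. The part of this limit in the sums was not tested.

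The position of the members, and in part their order, moved with the processing. Without any normalization the differences at 24 h lay between -2.57 and -2.12 for the 5 members, with the median of all miRs at -2.03. That setting kept a floor at the arrays' median of the lowest detected signal. At a floor of 1 signal unit, unscaled miR-138 differed by -3.46 at 24 h and -4.72 at 7d. The other members tested then lay between -2.59 and -2.13 at 24 h, and between -3.36 and -2.24 at 7d. In the authors' table the differences at 7d were -2.39 for miR-138, -1.03 for miR-128, -0.48 for miR-9, -0.28 for miR-124 and 0.09 for miR-218, with a median of -0.37 over its 210 miRs. Relative to that median, miR-138 was lower by -2.02, miR-128 by -0.66 and miR-9 by -0.11, and miR-124 (0.08) and miR-218 (0.45) lay above it.

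**Figure D5:**
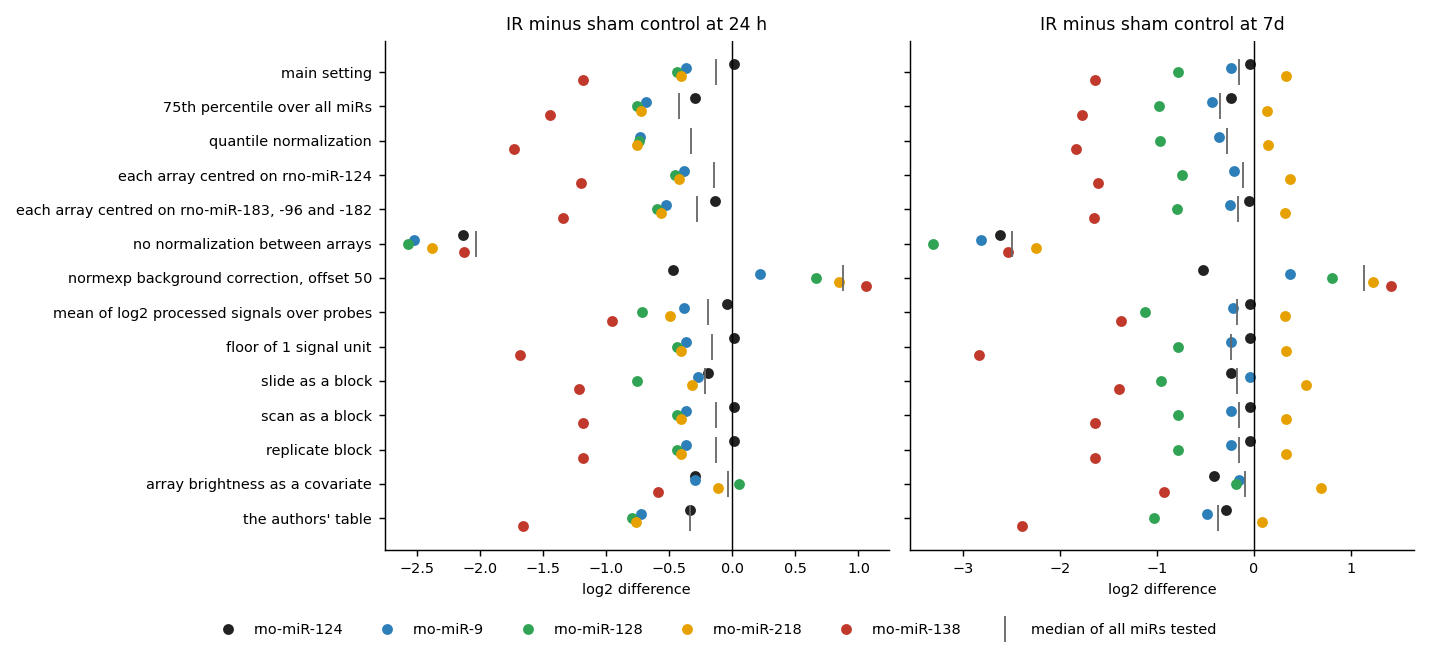
Log2 difference, IR minus sham control, of the 5 members (points) at 24 h and 7d under 14 ways of processing (rows of the plot), with the median of all miRs tested as a grey tick. miR-138 is the lowest member in most rows, but with no normalization every point moves below -2, and under normexp background correction miR-138 becomes the highest (1.06 and 1.42).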

How the data were processed

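Total RNA of whole retinas (100 ng per sample, RNA integrity numbers above 8) was labeled with Cy3 and hybridized to 1-color Agilent rat miR arrays, 60 in all. Per the file headers, the authors extracted spot intensity with Agilent Feature Extraction 9.5.3.1, whose settings took off local background and a spatial detrend. The deposited intensity values were not normalized between arrays, and the arrays were annotated on rn4. The authors also deposited log2 values, made with GeneSpring and scaled to the 75% quantile, for 210 of the 350 rat miRs, miR-137 not among them; that table was used as an alternative.

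Total gene signals were divided by the 75th percentile of the 57 miRs present on every array and raised to a floor of 6.20 signal units, which is the arrays' median of the lowest detected signal. The lowest detected signal of an array was taken over positive signals, since a flagged signal was negative on some array. All 60 arrays entered 1 fit of 10 groups in limma 3.58.1 (R 4.3.3), with Benjamini-Hochberg adjustment over 159 miRs per comparison; Python 3.11.15, numpy 2.4.6, pandas 2.3.3 and matplotlib 3.10.9 served for the rest. The fit was tested on simulated data. No spot of a member was saturated and no arrays were identical. The number of arrays limits the precision, and each group held 6 rats with an array each, by the labels and the study's methods.

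The members were named throughout, with their passenger strands and the 3 miRs most like each member by Pearson correlation. Also named were the called miRs of a list of other miRs taken as neuron-enriched and of cell type lists. Members and lists were chosen with earlier results of these data known. Not on the array were rno-miR-7, rno-miR-149 and rno-miR-155. Other probe summaries, background corrections, scalings, floors, filters, priors, blocks and covariates, the authors' table, an exact two-sided permutation test (smallest p 0.00216) and leaving out each array were tried. The highest detection limit as floor was chosen after seeing the data.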

Additional observations from a re-analysis of the deposited data

Results flagged for a closer look

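In 3 of 49 groups of 6 arrays with a measurable level, 1 array of a member lay far from the other 5 by Dixon's criterion, which chance alone meets in about 1 in 20 groups. miR-9 was at 5.99 on sham control replicate 1 at 48 h, where the next array was at 7.30. miR-128 was at 6.00 on sham control replicate 3 at 2 h, next to 6.36. miR-218 was at 4.12 on IR replicate 3 at 24 h, next to 5.11, and this was also the array with the lowest brightness of its group (-2.27).

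The effect of IR on miR-138 differed between 2 h and 24 h, by -1.04 on the log2 scale (limma, adjusted p = 0.00173), and all 6 IR arrays were below the sham control mean at both times. No IR array detected miR-138 at 24 h and 2 were at the floor, and the miR was tested only because sham control at 7d detected it on all 6 arrays, so the size of this difference depends on the floor.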

How the results depend on the processing

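The counts of members called changed as follows. At 0 h (0 called) the adjusted p alone gave 1 and no normalization 4. At 24 h (1 called) the adjusted p alone gave 4, no normalization 5, and the mean over probes, testing only the 57 miRs detected on every array, array brightness as a covariate and the highest detection limit as floor each gave 0. At 48 h (0 called) the adjusted p alone gave 2, no normalization 5, and normexp background correction, quantile normalization, scaling over all miRs, a floor of 1 signal unit and the authors' table each gave 1. At 7d (1 called) the adjusted p alone, the mean over probes, normexp and the authors' table each gave 2, no normalization 5, and the 57 miRs, brightness and the highest limit 0. The members called under normexp were higher in IR: miR-138 at 24 h (1.06) and 48 h (1.02), and miR-138 (1.42) and miR-218 (1.23) at 7d. For the change of the IR effect from 2 h to 24 h (1 member), no normalization and the authors' table gave 5, scaling over all miRs 4, quantile normalization and centring on miR-183, miR-96 and miR-182 3, the mean over probes, only the arrays compared, scan as a block, slide as a block and slide as a random block 2, and normexp, the floor of 1 unit, the 57 miRs, brightness and the highest limit 0. From 24 h to 7d (0 members), quantile normalization and centring on miR-183, miR-96 and miR-182 gave 1. Among sham control groups (0 members), no normalization, centring on miR-183, miR-96 and miR-182 and scan as a block gave 1. With the replicate number as a block, 2 members changed effect from 2 h to 24 h and 1 differed among sham control groups, and the counts at the 5 times stayed the same. Same-numbered arrays deviated together in only 15 of 30 pairs (r over 0.1, range -0.449 to 0.601) and 7 of 30 correlated best with their own number, so the numbers were not taken as pairs. Leaving out 1 array gave 0 to 0 members at 0 h and 2 h, 1 to 1 at 24 h and 7d, 0 to 1 at 48 h, 1 to 2 for the effect from 2 h to 24 h, 0 to 1 from 24 h to 7d and 0 to 2 among sham control groups. The 1 at 48 h came without IR replicate 1, 4 or 5 or sham control replicate 2, and was miR-138. Among differences that passed the adjusted p in either setting, directions turned under normexp for miR-138 at 0 h (0.87), 24 h (1.06), 48 h (1.02) and 7d (1.42), for miR-128 at 24 h (0.67), 48 h (0.64) and 7d (0.80), for miR-9 at 24 h (0.22), miR-218 at 24 h (0.84) and miR-124 at 24 h (-0.47), and miR-9, passing in neither setting, also turned at 48 h (0.28) and 7d (0.38). With no normalization they turned for miR-124 at 24 h (-2.13), miR-9 at 0 h (-1.03) and miR-218 at 0 h (-0.78), 48 h (-1.15) and 7d (-2.24). miR-124 at 24 h also turned with scaling over all miRs (-0.30) and in the authors' table (-0.34), and miR-128 at 24 h with brightness as a covariate (0.057). The cause was not tested, except that the 57 miRs do not include miR-128, miR-138 or miR-218 and the highest limit as floor (6.50) lies above nearly all levels of miR-128, miR-138 and miR-218. miR-128 was then at -0.01 at 24 h and 7d (adjusted p = 0.898 and 0.849). Otherwise those settings give these members no value, quantile normalization and centring on miR-124 give none for miR-124, and miR-137 was tested only with all detected miRs. Signal over background limits miR-137 and miR-138 most.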
